A study of Mus musculus with 3 samples.

Results

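The genes examined here are nuclear genes named for subunits of the oxidative phosphorylation complexes or for some of their assembly factors. The question was which of them held peaks of Tet2 in mast cells. Members were the protein-coding mouse genes whose symbol begins with Nduf, Sdh, Uqcr or Atp5, or with Cox followed by 4, 5, 6, 7 or 8. This rule uses names alone and no measured value, but it was chosen with earlier results of these data known. The rule gave 100 of the 21900 protein-coding genes of the RefSeq table. These comprised 41 complex I genes, 4 complex II genes, 8 complex III genes, 18 complex IV genes, 17 ATP synthase genes and 12 assembly factors (8 with Ndufaf and 4 with Sdhaf symbols). Grouping followed the symbols, so Ndufa4, which is now placed in complex IV, was counted with complex I. Cytochrome c and cytochrome c1 fell outside the naming rule. The data were 3 biological replicate CLIP libraries of a single group, mast cells derived from bone marrow of the C57BL/6 strain, with no other genotype or treatment named. The culture medium held interleukin-3 and SCF, the ligand of Kit. Cells were irradiated with ultraviolet light, and Tet2 was precipitated with an antibody to the endogenous protein. CLIP joins a protein to the RNA it touches before the protein is pulled down, and the joined fragments are then sequenced. No control antibody, input library or RNA level was analysed here, so more of a transcript and more Tet2 per transcript cannot be told apart. Nor can a listed peak be told apart from RNA recovered without contact with Tet2.

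Respiratory complexes I, III and IV pass electrons from NADH to oxygen and pump protons across the inner mitochondrial membrane, complex II feeds in electrons from succinate, and ATP synthase uses the proton gradient to make ATP. A few core subunits come from mitochondrial DNA, and all others are translated from nuclear messages in the cytosol and imported. Tet2 is known chiefly as an enzyme that oxidises 5-methylcytosine in DNA, and it has also been described to act on RNA. Many nuclear respiratory genes have short promoters read by the factors NRF1 and GABPA.

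The lists held 3019, 2800 and 2377 peaks in replicates 1, 2 and 3. Heights are the authors' normalized values, expressed here in units of the fixed step of each library, and 4 units was the median peak of each library. How many reads a unit stands for was not given, so the sequencing depth is unknown. Of 14 mast cell markers in the gene table, 9 held a peak, among them Kit (12, 5 and 7 units) and Gata2 (18, 11 and 15 units). Those without a peak were Fcer1a, Ms4a2 and Fcer1g of the mast cell receptor FcεRI, and Cma1 and Mcpt4. Markers of neutrophils and lymphocytes held no peak (0 of 6 each), and 1 of 6 macrophage and 1 of 6 erythroid or megakaryocytic markers held a peak. Of all protein-coding genes 14.1% held a peak. With 6 genes per list, nothing is read from the low counts about the cells present.

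Tet2 peaks were listed in 13 respiratory chain genes, and 4 of them carried a peak that recurred at the same place in every library. A peak was assigned to a gene when its midpoint lay in the gene's span on mm10. The strand of a peak was not used, so RNA from either strand of a gene was counted alike. By this rule 13 of 100 genes (13.0%) had a peak in 1 or more libraries, as did 14.1% of all protein-coding genes. In all 3 libraries 4 genes (4.0%) held a peak, against 3.16% of all protein-coding genes. The members' shares were near the background, and nothing is read from them about the members. The median member spanned 7336.5 nt, and the median protein-coding gene 17146 nt. Among protein-coding genes with a span of at most 20000 nt, 10.1% had a peak in 1 or more libraries and 2.39% in all 3. The 84 members of that length had 12 genes (14.3%) and 4 genes (4.76%). These counts are small, the differences were not tested, and nothing is read from them about the members. Per Mb of span, with a peak counted in each span that holds it, the members had 20.1 peaks over the 3 libraries and all protein-coding genes 7.03. A peak that recurred was counted once per library. The figure was not made for short genes alone, so nothing is read from it about the members. With 1 group and no control, no test between conditions exists, and no test over the list was made.

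The 4 genes with a peak in every library were Ndufa8, Cox7c, Cox8a and Atp5j, and their peaks lay close to a transcript start. RefSeq's promoter table on GRCm38.p6, which shares its coordinates with mm10, listed a start for 82 of the 100 members. The sequences that follow, 250 bases before the start and the first 30 bases from it, are shown because they lead into the only peaks of these genes found in all libraries. Each has 280 bases and is written along the strand of the gene. Capitals mark matches on either strand to CGCATGCG (the core of the NRF1 motif), CCGGAAG (the core read by GABPA and other ETS factors) or AAGATGGC (the core of the YY1 motif). These 3 strings were chosen after the windows had been seen. No table used here held the bases under most of the peaks.
Ndufa8, chr2:36049309-36049588, minus strand: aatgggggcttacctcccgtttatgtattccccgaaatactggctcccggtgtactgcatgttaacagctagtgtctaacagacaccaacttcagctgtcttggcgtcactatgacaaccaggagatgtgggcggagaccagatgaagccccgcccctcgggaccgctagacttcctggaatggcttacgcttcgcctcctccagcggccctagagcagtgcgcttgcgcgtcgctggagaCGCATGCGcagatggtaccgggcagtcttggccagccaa
Cox7c, chr13:86046766-86047045, minus strand: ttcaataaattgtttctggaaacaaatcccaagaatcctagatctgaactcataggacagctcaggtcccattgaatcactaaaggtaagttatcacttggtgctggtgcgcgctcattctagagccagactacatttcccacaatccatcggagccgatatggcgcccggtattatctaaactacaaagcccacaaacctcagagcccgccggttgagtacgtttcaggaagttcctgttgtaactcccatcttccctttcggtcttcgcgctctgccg
Cox8a, chr19:7217587-7217866, minus strand: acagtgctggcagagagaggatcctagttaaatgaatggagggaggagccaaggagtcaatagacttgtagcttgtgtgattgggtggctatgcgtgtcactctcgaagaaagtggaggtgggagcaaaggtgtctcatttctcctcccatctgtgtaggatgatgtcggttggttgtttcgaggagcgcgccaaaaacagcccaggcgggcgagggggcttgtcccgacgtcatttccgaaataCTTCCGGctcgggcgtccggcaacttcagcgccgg
Atp5j, chr16:84834947-84835226, minus strand: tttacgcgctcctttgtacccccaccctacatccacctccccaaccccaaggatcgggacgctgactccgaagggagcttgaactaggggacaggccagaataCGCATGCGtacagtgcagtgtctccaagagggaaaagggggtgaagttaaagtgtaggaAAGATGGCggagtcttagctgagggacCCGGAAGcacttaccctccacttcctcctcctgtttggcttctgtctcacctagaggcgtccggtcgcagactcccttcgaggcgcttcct

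The window of Ndufa8 held 1 NRF1 string just before the start, and that of Atp5j held 1 of each of the 3 strings. The window of Cox8a held 1 ETS string that runs across the start, and that of Cox7c held none. Among the 11 members with both a peak and a listed start, 4 had the NRF1 string (Ndufa8, Atp5j, Cox6a1 and Ndufa11), against 6 of 71 members without a peak (8.45%) and 2.65% of 17492 protein-coding genes. The ETS string was found in 5 of the 11, in 17 of the 71 (23.9%) and in 12.4% of the protein-coding genes. For the YY1 string the figures were 2 of 11, 3 of 71 and 2.82%. Among 2506 protein-coding genes with a peak and a listed start, 3.91% had the NRF1 string, 17.8% the ETS string and 3.43% the YY1 string. As the strings were picked with these windows in view, the counts are a description of the windows and not a sign of what binds there. The table's own windows run on to 50 bases from the start, past the part printed above. The peak of Ndufa8 alone reached into such a full window, whose last 15 bases it shared in replicate 1 (chr2:36049289-36049303, minus strand), and they read ACTTGAAGGAGACGG.

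In complex I, which takes electrons from NADH, 4 of 41 genes held a peak (9.76%), beside 14.1% of all protein-coding genes. Of the 41, 1 held a peak in every library, beside 3.16% of all protein-coding genes. Ndufa8, an accessory subunit on the intermembrane side, lies on chromosome 2 (36036324 to 36049338). It held 1 peak of 5, 9 and 5 units in replicates 1, 2 and 3. The 3 peaks began at the same base, 36049220, and ended at 36049303, 36049298 and 36049300. On the strand of the gene they ran from 35, 40 and 38 nt to 118 nt after the start, so the 3 libraries differed by at most 5 nt at one edge and not at all at the other. Ndufa11, a membrane subunit, held 1 peak of 5 units in replicate 1, 3 units in replicate 2 and none in replicate 3. That peak covered 56721401 to 56721441 of chromosome 17 in replicate 1 and 56721402 to 56721441 in replicate 2, and it lay 3659 nt from the start, inside the gene. The 2 core subunits with a peak had it in 1 library each. Ndufs3 stood at 3 units in replicate 3, with no peak in replicates 1 and 2. Ndufs7, which carries an iron-sulfur cluster beside the ubiquinone site, stood at 3 units in replicate 2, with none in replicates 1 and 3. No peak was listed in the other 37 complex I genes, which include Ndufs1 and Ndufv1, subunits of the arm that oxidises NADH.

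Complexes II and III held no peak in any library, beside 14.1% of all protein-coding genes with a peak in 1 or more libraries. With 4 and 8 genes, nothing is read from this absence. The 4 complex II genes were Sdha and Sdhb, the succinate-oxidising pair, and Sdhc and Sdhd, their membrane anchors. The 8 complex III genes included Uqcrc1, a core protein, and Uqcrfs1, the Rieske iron-sulfur protein. Among the 12 assembly factors, Sdhaf3, which helps mature the iron-sulfur subunit of complex II, was the sole gene with a peak. It stood at 8 units in replicate 2 (chromosome 6, 6989920 to 6990008) and had no peak in replicates 1 and 3. Sdhaf3 spans 83691 nt, and the peak lay 33946 nt from the start. The height of this peak exceeded that of 84.7% of the peaks in replicate 2, although neither other library listed it.

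In complex IV, cytochrome c oxidase, 4 of 18 genes held a peak (22.2%), beside 14.1% of all protein-coding genes. Of the 18, 2 held a peak in every library, beside 3.16% of all protein-coding genes. With so few genes, differences between complexes were not tested. Cox7c, a small membrane subunit, held the tallest respiratory chain peak, with 23, 12 and 11 units in replicates 1, 2 and 3. Those heights exceeded 97.3%, 91.8% and 91.2% of the peaks of their libraries, where 78, 203 and 179 peaks stood higher. On chromosome 13 the peak covered 86046532 to 86046545 in replicate 1, 86046518 to 86046540 in replicate 2 and 86046518 to 86046568 in replicate 3. The tallest was thus also the narrowest, at 14 nt against 23 and 51 nt. All 3 peaks fell between 227 and 277 nt after the start of a gene that spans 1998 nt in all. Cox8a, another small membrane subunit, held 1 peak of 5, 4 and 4 units on chromosome 19. It covered 7217414 to 7217507, 7217413 to 7217503 and 7217416 to 7217503, or 109 to 203 nt after the start over the 3 libraries. Low as they were, the peaks of Cox8a recurred at the same place, with midpoints within 2 nt of each other.

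The other complex IV peaks were low and did not overlap between libraries. Cox6a1, the isoform of subunit VIa made outside striated muscle, held 1 peak of 3 units in replicate 1, 2 of 3 units in replicate 2 and none in replicate 3. The peak of replicate 1 covered 115348666 to 115348687 of chromosome 5, and the nearest of replicate 2 covered 115348696 to 115348707, which left a gap of 8 nt. Cox5a, a subunit on the matrix side, held peaks of 4 and 3 units in replicate 2 and none in replicates 1 and 3. They lay 142 and 7761 nt from the listed start. The other 14 complex IV genes held no peak, among them Cox4i1, the most widely expressed form of subunit IV, and the muscle forms Cox6a2, Cox7a1 and Cox8b.

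In ATP synthase 4 of 17 genes held a peak (23.5%), beside 14.1% of all protein-coding genes, a difference that was not tested. Of the 17, 1 held a peak in every library, beside 3.16% of all protein-coding genes. Atp5j, coupling factor 6 of the stalk that holds the enzyme's head in place, held 1 peak of 8, 13 and 12 units, higher than 85.7%, 92.8% and 92.5% of the peaks in replicates 1, 2 and 3. It covered 84834829 to 84834879, 84834830 to 84834868 and 84834836 to 84834879 of chromosome 16. Atp5j has 2 listed starts, at 84835625 and 84834976, and the peaks ran from 97 to 147 nt after the second. Atp5a1, the alpha subunit of the catalytic head, held 1 peak of 6 units in replicate 1 and 9 units in replicate 2, and none in replicate 3. The peak of replicate 2 (77774072 to 77774094 of chromosome 18) lay wholly inside that of replicate 1 (77774053 to 77774094). No start was listed for Atp5a1 in the table used, and the midpoints lay 305 and 315 nt from the nearer end of its span.

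Atp5pb, subunit b of the same stalk as Atp5j, stood at 3 units in replicate 3 alone. Atp5mpl, a small membrane subunit, held 1 peak of 5 units in replicate 3 (chromosome 12, 111966952 to 111967000). A further peak of 5 units in replicate 2, at 111967013 to 111967038, lay 4 nt beyond the end of the Atp5mpl span and was not counted. The catalytic beta subunit Atp5b and the rotor subunit Atp5c1 had no peak in any library, nor had the other 11 genes. Peaks within 1000 nt outside a span were also found at Ndufb10 (3 units, replicate 3) and at Ndufb1 (3 units, replicate 1, inside the span of Cpsf2).

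**Figure D1:**
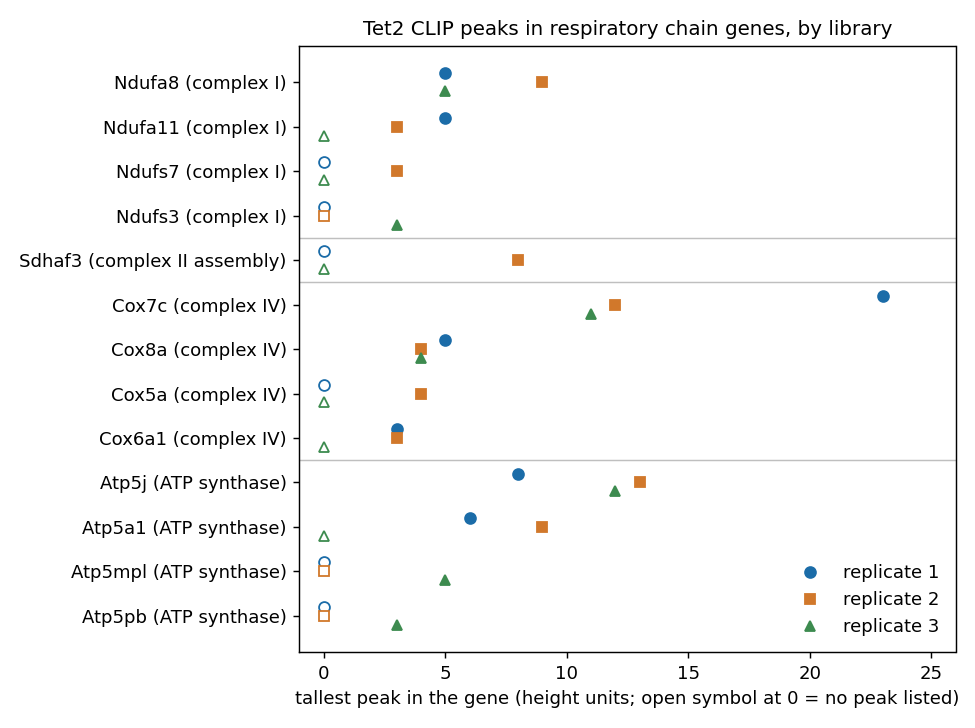
Tallest peak of each of the 13 respiratory chain genes with a peak, in height units on the horizontal axis, with 1 symbol per library and open symbols at 0 where a library listed no peak. Cox7c (23, 12 and 11 units), Atp5j (8, 13 and 12), Ndufa8 (5, 9 and 5) and Cox8a (5, 4 and 4) are the genes with a filled symbol for every library.

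Replicate 2 listed more of these peaks than either other library. It held 12 of the 26, in 10 genes, and replicates 1 and 3 held 7 each, in 7 genes each. The mean was 8.67 ± 2.89 peaks per library (SD, n = 3), which made up 0.318% ± 0.100 of all peaks and 0.323% ± 0.0709 of their height (SD, n = 3). Median member heights were 5, 4 and 5 units, and the median in all protein-coding genes was 4 units in each library. Over the 3 libraries together, 5 of the 26 peaks (19.2%) reached 10 units, against 8.31% of 7135 peaks in protein-coding genes, and all 5 belonged to Cox7c and Atp5j. Peaks of at most 4 units made up 42.3% of the 26 and 65.0% of the 7135. A site that recurred entered these pooled shares once per library, so they rest on fewer sites than peaks. Each of the 26 midpoints lay in a single gene span.

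Of the 13 genes with a peak, 6 had it in 1 library, 3 in 2 and 4 in 3. The share in 3 libraries was 30.8%, against 22.5% of the 3086 protein-coding genes with a peak. When peaks of different libraries that overlapped by at least 1 nt were joined into loci, the 26 peaks formed 16 loci. Of these, 4 (25.0%) were shared by all libraries, 2 (12.5%), in Ndufa11 and Atp5a1, by 2 libraries, and 10 (62.5%) were in 1 library. Among 5242 loci in protein-coding genes the corresponding shares were 10.6%, 14.9% and 74.5%. With 16 loci these shares are coarse. Without replicate 3, which listed no peak in Ndufa11, Atp5a1 or Cox6a1, the genes with a peak in every remaining library were 7 in place of 4. Asking for fewer libraries can only keep or raise this count, and the share of all protein-coding genes is not given for it.

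More of the members' peaks than of the peaks in other genes lay near a transcript start, a difference that rested on 6 genes and was not tested. Distance was taken from the peak's midpoint to the nearest listed start of its gene, along the gene's strand. The strand of the peaks themselves was not used. The limit of 500 nt was chosen after the distances had been seen. Of the members' peaks 83.3%, 63.6% and 66.7% in replicates 1, 2 and 3 lay within 500 nt of a start, a mean of 71.2% ± 10.6 (SD, n = 3). In other protein-coding genes the shares were 31.9%, 32.9% and 33.7% (32.8% ± 0.883, SD, n = 3), and in those with a span of at most 20000 nt 39.3% ± 0.778 (SD, n = 3). The members' share was thus higher in each library, on 6, 11 and 6 peaks. Among the members with a peak near a start, Cox7c, Cox8a and Cox6a1 span only 1998, 2459 and 3307 nt. The genes of at most 20000 nt were not matched to such spans, and the part played by span was not tested. Repeated peaks of 1 site enter these shares more than once. Counted once per locus, 8 of 14 member loci (57.1%) lay within 500 nt, against 30.3% of 4310 loci in all protein-coding genes and 37.7% of 1599 in short ones. The 8 include the separate low peaks of Cox6a1 (282, 257 and 104 nt), each in 1 library and each counted as its own locus. Counted once per gene, 6 of 11 members (54.5%) had a peak there, against 46.2% of 2506 protein-coding genes and 52.6% of 985 short ones. By genes, then, the members' share was close to that of short genes. Among loci shared by all libraries, 4 of 4 in members lay within 500 nt of a start. The shares were 40.2% of 463 such loci in all protein-coding genes and 43.6% of 188 in short ones.

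**Figure D2:**
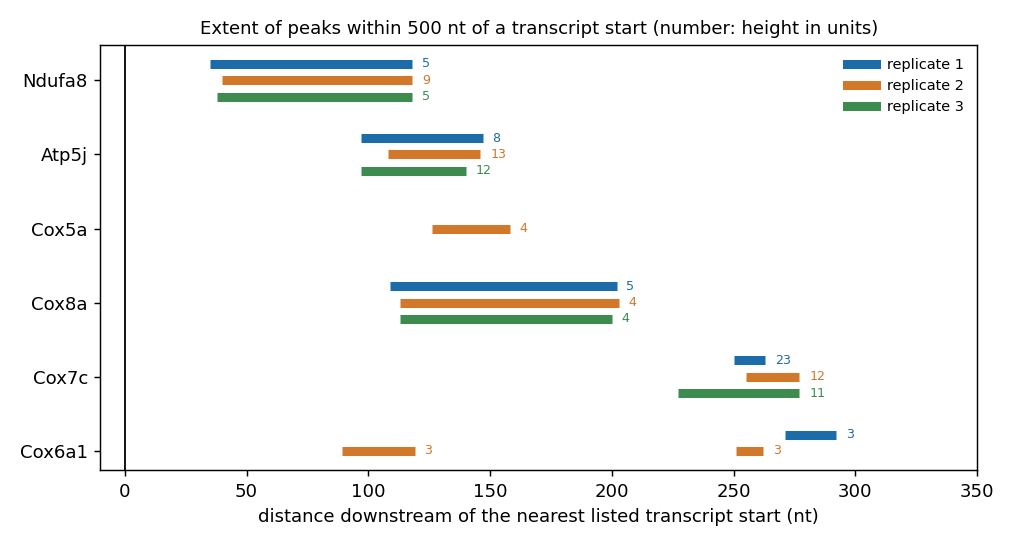
Extent of each peak within 500 nt of a listed start, drawn from the start at 0 along the strand of the gene, in nt, with the height in units beside each bar. In Ndufa8, Atp5j, Cox8a and Cox7c the bars of the 3 libraries lie over one another, while the 3 bars of Cox6a1 do not overlap.

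**Figure D3:**
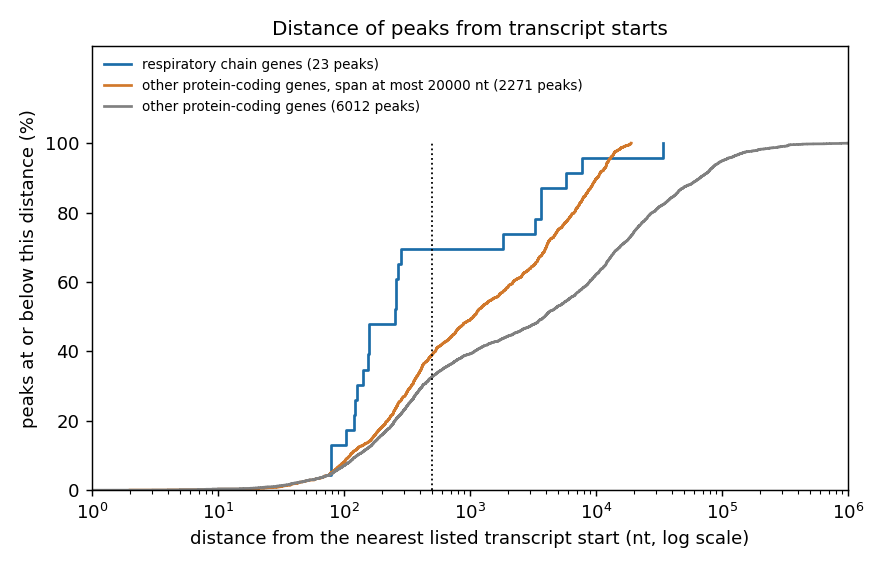
Cumulative share of peaks, in percent, by distance from the nearest listed start in nt on a log axis, for 23 peaks of respiratory chain genes, 6012 peaks of other protein-coding genes and the 2271 of these in spans of at most 20000 nt. At 500 nt, the dotted line, the curve of the respiratory chain genes stands at 69.6%, that of the other genes at 32.7% and that of the short ones at 39.2%.

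Exons were not analysed here, so the place of these peaks in an untranslated or coding exon or an intron is not given. Processed copies of respiratory genes are common in the mouse genome, and how reads matching several copies were treated was not stated. The gene table lists 19 pseudogenes with a symbol that fits the rule, and none held a peak. The share of all pseudogenes with a peak is not given, and copies under other symbols were not searched. Nothing is therefore read from this absence about reads that match several copies.

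Other lists of mitochondrial genes were counted in the same way, with no test, beside the 14.1% of all protein-coding genes with a peak in 1 or more libraries and the 3.16% with a peak in all 3. The 13 respiratory subunits encoded by mitochondrial DNA held none, and no list had any peak on the mitochondrial chromosome. It was not stated if reads of that chromosome were kept. Cytochrome c (Cycs and its testis form Cyct) and cytochrome c1 (Cyc1) held no peak. Assembly factors outside the naming rule had 6 of 37 genes with a peak (16.2%) and none in all 3 libraries. The tallest were in Cox17, a copper chaperone (5, 0 and 0 units), Cox18, a membrane insertase (0, 0 and 4 units) and Taco1, a translational activator of mitochondrial Cox1 (3, 4 and 0 units). Citric acid cycle genes had 4 of 18 (22.2%), led by Dlst, a part of the oxoglutarate dehydrogenase complex (5, 4 and 0 units), and the isocitrate dehydrogenase Idh2 (0, 5 and 0 units), and with Pcx, the pyruvate carboxylase, present in every library (4, 3 and 5 units, with a peak in an overlapping span). Mitochondrial ribosomal proteins had 7 of 78 (8.97%), none in more than 1 library, with Mrpl15 tallest (6, 0 and 0 units).

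Genes for mitochondrial import had 7 of 25 with a peak (28.0%), and 1 of them (4.0%), Tomm40, the channel of the outer membrane, held it in every library (7, 6 and 6 units). Regulators of mitochondrial gene expression had 6 of 16 (37.5%), with 1 (6.25%) in every library, Nrf1 itself (4, 4 and 6 units), and the coactivator Ppargc1b in 2 (0, 5 and 4 units). The genes of these lists have median spans of 8317 and 28048.5 nt. Cytosolic ribosomal proteins had 23 of 90 (25.6%), with 4 (4.44%) in every library. Their genes have a median span of 3169.5 nt, against 7336.5 nt for the members. Rpl13a reached 11, 3 and 5 units there and Rpl27a 5, 8 and 4. The respiratory chain share in all libraries (4.0%) and the ribosomal one were both near the 3.16% of all protein-coding genes, so nothing is read from their closeness. The respiratory chain share in at least 1 library was lower than the ribosomal one, a difference that was not tested.

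**Figure D4:**
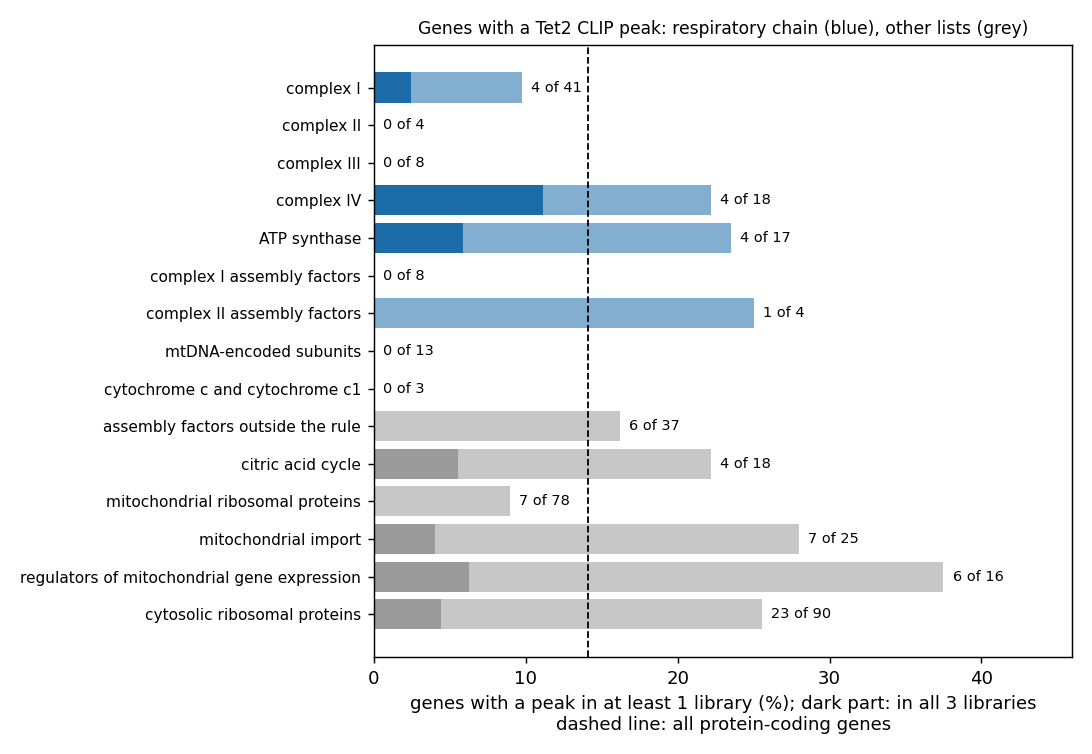
Percent of genes with a peak in at least 1 library for the respiratory chain groups (blue) and the other lists (grey), with the part found in all 3 libraries in the darker shade, the counts at the bar ends and the share of all protein-coding genes, 14.1%, as a dashed line. Complex IV (4 of 18) and ATP synthase (4 of 17) lie above the line and complex I (4 of 41) below it, with no bar for complexes II and III.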

How the data were processed

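Tet2 CLIP peaks of 3 libraries of 1 group were analysed. Named in the submitters' processing notes are STAR 2.4.0i, cutadapt 1.9 and mm10, and a valley-seeking method called the peaks, per the labels' protocols. The values are a signal: the authors deposited a normalized height for each peak, called separately per library, and the heights of a library sum to 1. Heights were whole multiples of a step, within 0.05 of a step for each peak, and are given as such units (19213, 18270 and 15431 per library). Starts were read as 0-based and are printed 1-based. Libraries were matched to titles by the numbers in the column headings. The labels name no separate animals, so the SD may be partly technical.

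Genes and promoter windows came from RefSeq (GRCm38.p6), with peaks assigned by midpoint in Python 3.11.15 with pandas 2.3.3. Assignment and joining into loci were tested on simulated data. Each member with a peak is named; of members without one, the best known subunits; and of the other lists up to 4 genes with the tallest peaks. Members, lists and limits were chosen with earlier results of these data known. The ribosomal protein list was narrowed after the files were seen, to leave out kinases with Rps6k symbols and Rps19bp1. Alternatives covered assignment, span, height, overlapping spans, assembly factors, sharing and each library.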

Additional observations from a re-analysis of the deposited data

How the results depend on the processing

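Of 65 alternative values, 59 stayed within 1.5 times the count or within 1 SD of the mean reported. Those that moved came from height limits and from replicate 3. With peaks of at least 5 units, 8 members held a peak in at least 1 library, with 5 peaks per library, 0.505% of the peaks and a median of 7.5 units. In the same setting 5.65% of protein-coding genes held a peak. With at least 4 units the median was 6.5 units. Both limits raise the median by construction, since they remove the low peaks. The number of members with a peak in every library kept ran from 4 to 7 when 1 library was left out, and was 7 without replicate 3. Leaving out a library can only keep or raise this number, and no share of all protein-coding genes is given beside it. Counting any overlap, extending spans by 1000 nt, keeping single-span peaks and dropping assembly factors moved none of the results reported. The distance results, with their limits of 500 and 1000 nt, were added after the data were seen, and the mean share ran from 65.2% to 75% over the libraries left out. Most peaks stand at the lowest heights listed, so a gene without a peak may carry sites below what the lists hold. No paired analysis was possible because the series has 1 group.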
